A study of Homo sapiens with 8 samples.

Results

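Oxidative phosphorylation is carried out by 5 protein complexes of the inner mitochondrial membrane, whose subunits are encoded partly by nuclear genes and partly by the mitochondrial genome. The regions described here lie in the RNAs of both genomes and come from an eCLIP experiment on LARP6 in human hepatic stellate cells. Nuclear members were protein-coding genes with a symbol starting NDUFA, NDUFB, NDUFC, NDUFS, NDUFV, SDH, UQCR, COX4 to COX8 or ATP5, and mitochondrial members were all genes of chrM. A region belonged to a gene when its midpoint lay within the gene on the gene's strand. In all, 1064 of the 178461 regions in the deposited tables qualified, 706 of them nuclear and 358 mitochondrial. Of 100 nuclear genes that fit the naming rule, 80 had a region in at least 1 library, 40 had one in all 4 libraries, 8 had one in 1 library and 20 had none. Of 37 mitochondrial genes, 24 had a region: all 13 mRNAs, both rRNAs and 9 of 22 tRNAs. In these bulk libraries, fewer cells that make an mRNA and less of it per cell cannot be told apart, and an RNA made at a low level may give no region.

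eCLIP crosslinks proteins to RNA with ultraviolet light, precipitates one protein with an antibody, here against LARP6, and sequences the RNA fragments attached to it. Each precipitated library has a size-matched input, made from RNA of the same gel size range without precipitation. Both groups were wild-type cells labelled as hepatic stellate cells, with no line or donor named. One group was the control, labelled as untreated in one field and with the solvent DMSO in another, and the other had received TGFβ1 at 5 ng/ml for a time that the labels do not give. Each group had 2 precipitated and 2 input libraries, 8 samples in all, and nothing in the labels says whether replicates were separate cultures, so their spread may be technical. Most markers fitted the labelled cell type. Regions lay in 13 of 15 stellate cell markers in every library, all but DES and RGS5, and in none of 8 hepatocyte markers. Of the other markers, 0 to 1 of 6 endothelial, 1 of 6 macrophage and leukocyte, and 2 of 4 cholangiocyte markers had a region. The 4 cholangiocyte markers together held 2, 3, 15 and 18 regions (control replicates 1 and 2, then TGFβ1 replicates 1 and 2), mostly in KRT7, while EPCAM and KRT19 had none. Control replicates 1 and 2 held 51273 and 39880 regions, TGFβ1 replicates 1 and 2 held 31137 and 54536, and read totals were not used here.

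LARP6 belongs to the La-related proteins and is best known for binding a stem-loop in the 5′ part of fibrillar collagen mRNAs, which activated stellate cells make in large amounts. Complex I (NADH dehydrogenase), complex II (succinate dehydrogenase), complex III (cytochrome bc1) and complex IV (cytochrome c oxidase) pass electrons to oxygen, and complex V (ATP synthase) uses the proton gradient that results to make ATP. Nuclear subunits are translated on cytosolic ribosomes and imported, whereas the mitochondrial mRNAs are translated inside the organelle by ribosomes that hold the 2 mitochondrial rRNAs. Complex II has nuclear subunits only.

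Values below are the authors' log2 fold of the precipitated library over its input, one value per region, and 4 values in a row are those of control replicates 1 and 2 followed by TGFβ1 replicates 1 and 2. A fold over input is not a level of the RNA. A region is called enriched where its log2 fold and its −log10 p were both at least 3.

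An enriched region in at least 1 library was found in 9 of the 80 nuclear genes, beside 10.8% of all protein-coding genes with a region, and in 4 of the 9 one lay within 150 nt of the gene's 5′ end. All 4 of those regions were enriched in TGFβ1 replicate 2, out of 12 enriched member regions there, and over all protein-coding genes 5.85% of the enriched regions of that library lay as near. Of all its member regions, enriched or not, 22.0% lay as near, beside 5.74% for all protein-coding genes. In control replicates 1 and 2 and TGFβ1 replicate 1, 0 of 2, 1 of 4 and 0 of 3 enriched member regions did. For these 4 the RefSeq promoter windows of build GRCh38.p14 reach into the region, and the bases are shown so that the 4 starts can be compared letter by letter. Capitals mark bases covered by a region in all 4 libraries.
ATP5F1E, chr20:59032298-59032327, minus strand: ggctgAACCGCCCGGCTGAGCCGACATTGC
COX5B, chr2:97646084-97646111, plus strand: gcaatGGCTTCAAGGTTACTTCGCGGAG
NDUFB10, chr16:1959552-1959581, plus strand: aggccGCGGGACCCGGACGGAGGTAGAGGC
UQCR11, chr19:1605431-1605460, minus strand: tgtagCCGGGTCAGCTGGACAGGGTCATCC
The first base shown lies 8 nt after the start of ATP5F1E, 22 nt after that of COX5B, 14 nt after that of NDUFB10 and 2 nt after that of UQCR11. Over the first 50 bases of the gene the GC content was 70%, 54%, 76% and 66% in the same order. Across the first 50 bases of 27305 promoter windows of all genes the median was 60%, with quartiles of 50% and 70%, so that 1 of the 4 starts, that of NDUFB10, lay above the upper quartile and none lay below the lower one.

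The nuclear mRNAs gave higher folds than the mitochondrial RNAs in every library. The median log2 fold of nuclear regions was 0.38, 0.85, 1.12 and 0.95, from 149, 154, 152 and 245 regions. That of mitochondrial regions was −0.85, −0.77, −0.38 and −0.76, from 81, 90, 81 and 105 regions. Nuclear medians were above 0 and mitochondrial medians below 0 in 4 of 4 libraries, and the 2 sets of medians did not overlap. The difference was 1.23, 1.62, 1.50 and 1.71, a mean of 1.52 ± 0.21 (SD, n = 4), with p = 0.13 by a two-sided exact sign-flip permutation test over libraries. That is the smallest p that 4 libraries allow, so the test could not reach 0.05 in this design. Regions above 0 made up 72.5%, 76.6%, 89.5% and 78.8% of nuclear regions and 30.9%, 25.6%, 27.2% and 29.5% of mitochondrial regions. Over all regions of nuclear protein-coding genes the share above 0 was 73.1%, 73.7%, 81.4% and 79.1%.

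The folds of the nuclear members were close to those of other nuclear mRNAs. The median over all regions of protein-coding nuclear genes was 0.38, 0.85, 0.94 and 0.77, and the members' median differed from it by 0, 0, 0.18 and 0.17. The differences of 0 in the control libraries are ties at the most common fold. Means were higher in members in each library, at 0.45, 0.83, 1.02 and 0.95 beside 0.42, 0.72, 0.88 and 0.90, which was not tested. Many folds were repeated exactly: 40 of the 149 nuclear regions of control replicate 1 shared the value 0.38, and 41 of the 154 of control replicate 2 shared 0.85. The −log10 p was below 1 for 94.0%, 90.3%, 86.8% and 81.2% of nuclear regions. These shares include every region with a negative fold, to which the authors gave a −log10 p of 0. Most single regions of these mRNAs could therefore not be told to lie above input in these libraries, and depletion was not tested.

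**Figure D1:**
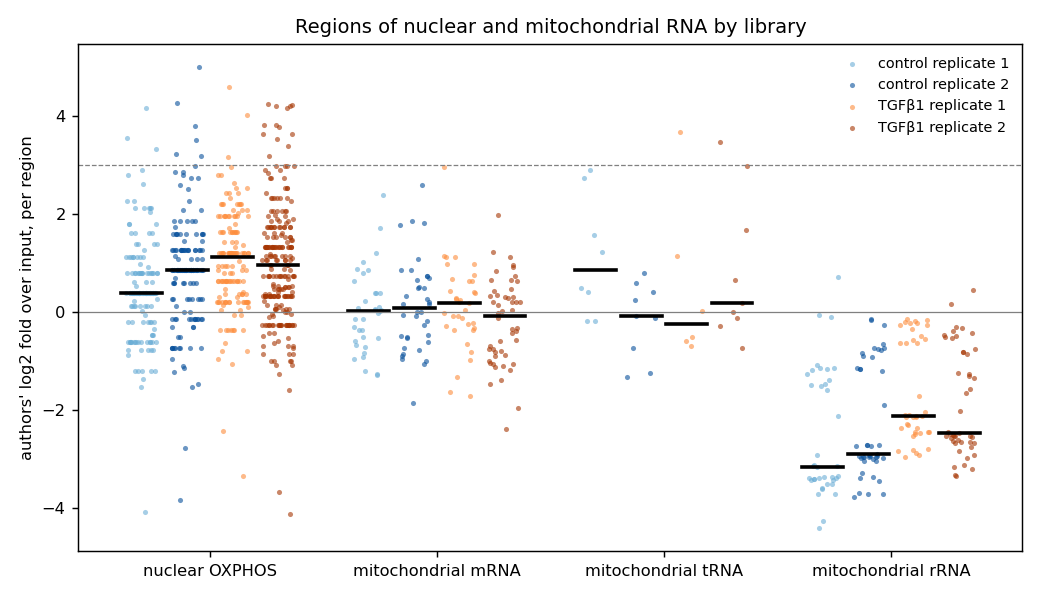
Each point is 1 region, placed by the class of RNA (horizontal axis) and the authors' log2 fold over input (vertical axis), coloured by library; black bars are library medians and the dashed line is the log2 fold of 3 used to call enrichment. Nuclear medians lie between 0.38 and 1.12, those of mitochondrial mRNA between −0.08 and 0.18, and those of mitochondrial rRNA between −3.16 and −2.13.

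The mitochondrial RNAs did not behave as 1 class. Regions of the mRNAs lay near input, with medians of 0.02, 0.07, 0.18 and −0.08 from 35, 38, 35 and 50 regions. Regions of the rRNAs lay far below it, with medians of −3.16, −2.91, −2.13 and −2.48 from 38, 43, 40 and 46 regions. The tRNAs had 6 to 9 regions per library and medians of 0.85, −0.09, −0.25 and 0.18. With the rRNAs left out, an alternative chosen after the values were seen, the nuclear regions were higher by 0.81 on average (exact permutation p = 0.13). With the rRNAs, the tRNAs and the nuclear assembly genes all left out, the difference was 0.70.

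The rRNA values came mainly from RNR2, the RNA of the large subunit of the mitochondrial ribosome (MT:1671-3229). Its median was −3.40, −2.97, −2.37 and −2.57 from 26, 31, 27 and 32 regions, and no RNR2 region of any library was above 0. RNR1, the RNA of the small subunit (MT:648-1601), had medians of −1.16, −0.75, −0.26 and −0.49 from 12, 12, 13 and 14 regions. Both TGFβ1 medians were above both control medians for each rRNA: RNR2 averaged −3.18 ± 0.30 (SD, n = 2) in control and −2.47 ± 0.14 in TGFβ1, and RNR1 averaged −0.95 ± 0.29 and −0.38 ± 0.16. The exact test of 2 libraries against 2 cannot go below p = 0.33. The authors gave a −log10 p of 0 to every region with a negative fold, so the low rRNA values carry no test of their own. A short stretch of RNR1 was an exception, with midpoints 67 to 73 nt after its start: its log2 fold was 0.70 in control replicate 1 and 0.45 in TGFβ1 replicate 2, with −log10 p values of 5.53 and 5.58.

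The 13 mitochondrial mRNAs had no enriched region in any library, beside 1.21%, 2.09%, 2.69% and 3.64% of all regions. From 35, 38, 35 and 50 mRNA regions, the Wilson interval reached up to 9.89%, 9.18%, 9.89% and 7.13%. It held the share over all regions in each library. COX1, COX2 and COX3 encode the catalytic core of complex IV, and their gene medians averaged 0.34 ± 0.16, 0.29 ± 0.26 and 0.33 ± 0.31 (SD, n = 4 libraries). The highest region of COX1 reached 1.70, 2.58, 1.12 and 1.98, with −log10 p values of 1.64, 4.50, 1.58 and 5.66. In control replicates 1 and 2 and in TGFβ1 replicate 2 that region lay at the same place, with its midpoint 122 to 125 nt after the start of COX1. No other mitochondrial mRNA had a highest region with a −log10 p of 3 or more, and the COX1 region stayed below the fold limit.

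The 7 mitochondrial subunits of complex I fell on both sides of input. ND4L averaged 0.51 ± 0.46, ND1 0.14 ± 0.81, ND5 0.12 ± 0.10, ND2 −0.18 ± 0.40 and ND4 −0.90 ± 0.16 (SD, n = 4 libraries). ND6, the single mRNA of the other strand, averaged −0.18 ± 0.19, and ND3 had a region in 3 libraries, with medians of −0.17, 0.03 and −1.51. The highest region of ND1 reached 2.38, 1.85, 2.94 and 0.95, above that of COX1 in replicate 1 of each condition and below it in replicate 2, with −log10 p values of 0.90, 1.01, 1.53 and 1.36. CYTB, the complex III subunit, averaged −0.44 ± 0.29. Of the complex V subunits, ATP6 averaged −0.83 ± 0.21, and ATP8 had a single region, at −1.64 in TGFβ1 replicate 1. The spans of ND4 and ATP6 over the 4 libraries, both entirely below 0, did not overlap those of COX1, COX2 or COX3.

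The highest mitochondrial folds were in a tRNA. TRNG, the glycine tRNA (MT:9991-10058), had regions with log2 folds of 2.88 in control replicate 1, 3.67 in TGFβ1 replicate 1 and 3.46 in TGFβ1 replicate 2, and no region in control replicate 2. The −log10 p values were 7.37, 11.7 and 30.4. The place was chrM:10003-10015, with its midpoint 18 nt after the start of the tRNA. It was the only mitochondrial peak in either of the authors' lists of peaks found in both replicates, in the TGFβ1 list at a log2 fold of 3.57. Control replicate 1 missed the fold limit by a small margin and control replicate 2 gave no value, so a difference between the conditions was not tested. TRNP, the proline tRNA of the other strand, was above input in all 4 libraries at 1.22, 0.79, 1.13 and 1.66, with −log10 p values of 3.14, 2.27, 3.32 and 16.1. TRNY was near 0 in all 4, at −0.19, 0.23, 0.02 and −0.30, and TRNH was below it, at −0.19, −1.30, −0.65 and −0.73. TRNF had regions in 3 libraries, with medians of 1.57, 0.23 and 0.65, and TRNL2 in 3, with −0.74, −0.53 and 0.18. TRNV had regions in 2, with medians of 0.44 and −0.08, and the 2 further tRNAs had 1 region each.

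**Figure D2:**
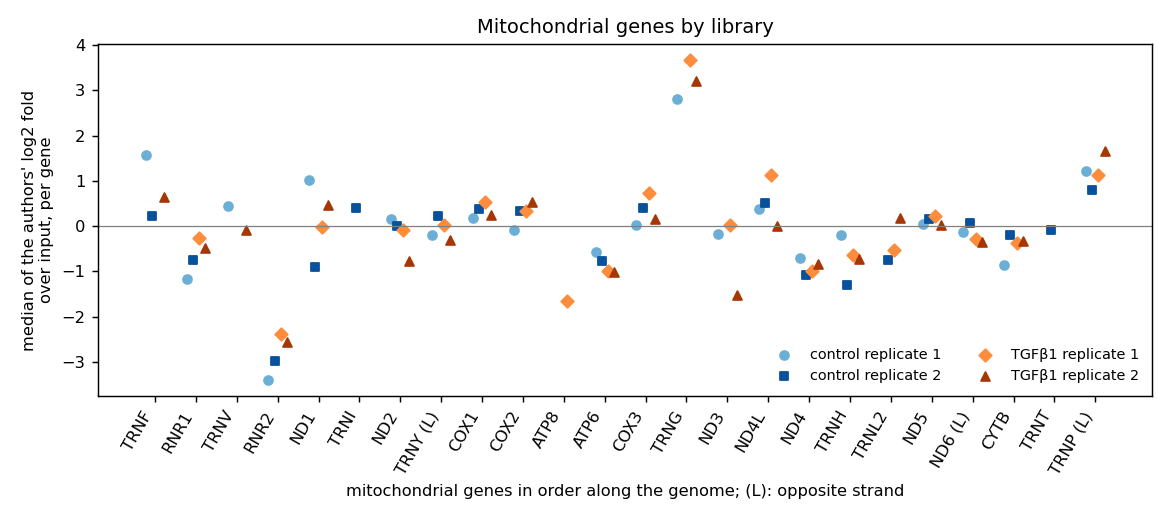
Points are the median log2 fold over input of the regions of 1 mitochondrial gene (horizontal axis, in genome order) in 1 library (vertical axis), with a symbol for each library. RNR2 is lowest in all 4 libraries, from −3.40 to −2.37, and TRNG is highest in the 3 libraries where it has a region.

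Among nuclear mRNAs, enriched regions were few and about as frequent as elsewhere. Control replicate 1 had 2 enriched regions, or 1.34% of its nuclear members (95% Wilson interval 0.37% to 4.76%), beside 0.957% of regions in all nuclear protein-coding genes. Control replicate 2 had 4, or 2.60% (1.01% to 6.49%), beside 1.91%. TGFβ1 replicate 1 had 3, or 1.97% (0.67% to 5.64%), beside 2.55%. TGFβ1 replicate 2 had 12, or 4.90% (2.82% to 8.36%), beside 3.6%. The share over all nuclear mRNAs lay within the interval in each library, and the intervals cover counting error only. Mitochondrial regions had 0, 0, 1 and 1 enriched, beside 1.21%, 2.09%, 2.69% and 3.64% of all regions of the library, and the 2 were both TRNG. The Wilson interval of the mitochondrial share reached up to 4.53% and 4.09% in the control libraries and to 6.67% and 5.20% in the TGFβ1 libraries. By gene, 2 of 57, 4 of 56, 2 of 59 and 9 of 76 nuclear members with a region had an enriched one, which is 3.51%, 7.14%, 3.39% and 11.8%, beside 3.05%, 5.17%, 6.71% and 12% of all nuclear protein-coding genes with a region. Over the 4 libraries together, 9 of 80 members had an enriched region, beside 922 of 8556 protein-coding genes, or 10.8%.

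The highest folds of the genes were compared by complex, as a description without a test. Taking the highest fold of each gene in each library, and the median of those over libraries, the 7 genes of complex V with a region in all 4 libraries had a median of 2.88. The 14 of complex I had 1.09, the 2 of complex II 1.10, the 6 of complex III 1.14 and the 7 of complex IV 1.14. The 4 assembly genes and inhibitors had 1.95. Over the 40 members the median was 1.29, and over the 4173 protein-coding genes with a region in all 4 libraries it was 1.60. A highest value grows with the number of regions, and the mean number per gene and library was 5.50 in complex V, 2.38 to 3.21 in the other groups, 3.26 over the members and 8.75 over all protein-coding genes. The part of the number of regions in these medians was not tested. Medians over all regions of a complex were less far apart, averaging 0.64 ± 0.20 for complex I, 1.14 ± 0.39 for II, 0.79 ± 0.34 for III, 0.57 ± 0.30 for IV and 0.84 ± 0.34 for V (SD, n = 4 libraries). In control replicates 1 and 2 the medians of complexes I, III and V were all 0.38 and 0.85, the most common fold of each library. Such tied values cannot tell these complexes apart.

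ATP synthase held the strongest sites, and they were in its catalytic F1 part. ATP5F1A encodes the alpha subunit, and a single site at chr18:46086172-46086259 on the minus strand was enriched in all 4 libraries at log2 folds of 4.15, 4.99, 4.57 and 4.23. It averaged 4.57 ± 0.59 in control and 4.40 ± 0.25 in TGFβ1 (SD, n = 2), with the control and TGFβ1 values overlapping. The −log10 p values were 4.97, 9.20, 6.22 and 13.9. The site was in both of the authors' lists, at 4.57 in control and 4.40 in TGFβ1. Its midpoint was 18012 nt from the 5′ end of the gene and 5967 nt from the 3′ end. A second place in the same gene, at chr18:46086387-46086403, gave 2.12, 2.96, 2.43 and 3.81 and was enriched in TGFβ1 replicate 2 alone. Other ATP5F1A regions lay between −0.74 and 2.89, so those 2 places alone passed the fold limit.

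ATP5F1D, the delta subunit of the central stalk, also had a site enriched in all 4 libraries, at chr19:1242463-1242610 on the plus strand. Its log2 folds were 3.55, 4.26, 4.01 and 4.20, which averaged 3.90 ± 0.50 in control and 4.11 ± 0.14 in TGFβ1 (SD, n = 2). The groups overlapped. The −log10 p values were 3.12, 5.27, 3.98 and 13.7, the first of them just past the limit. The control list held 1 peak there, at 3.93, and the TGFβ1 list 2, at 4.11 and 3.97. The midpoint was 785 nt from the 5′ end, while regions at the start and near the end of the gene stayed at or below 1.03.

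ATP5F1B encodes the beta subunit, which carries the catalytic nucleotide site. Its strongest place, chr12:56644810-56644884 on the minus strand, gave 2.25, 3.78, 1.94 and 3.81 and was enriched in replicate 2 of each condition and not in replicate 1. The same gene held the lowest fold of the nuclear members in each library, at −4.09, −3.84, −3.35 and −4.13, in the snoRNA gene SNORD59B. Regions of −1.37, −2.79, −2.43 and −3.68 lay in SNORD59A, and both snoRNA genes are on the same strand as ATP5F1B. Reads there cannot be assigned to the host mRNA or to the snoRNA from these tables. ATP5F1E, the epsilon subunit, had its site at the 5′ end printed above, at 2.25, 1.26, 2.79 and 3.18. Both TGFβ1 values were above both control values, as were the highest regions of 42.8% of all protein-coding genes, and only TGFβ1 replicate 2 passed the limits. A lncRNA that reads through from the neighbouring gene overlaps this site. ATP5MC2, a c-ring subunit of the membrane part, reached 3.32, 2.78, 1.94 and 2.97 at midpoints 12205 to 12218 nt from its 5′ end. None of those 4 was called, since the first had a −log10 p of 2.51 and the others were below the fold limit.

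**Figure D3:**
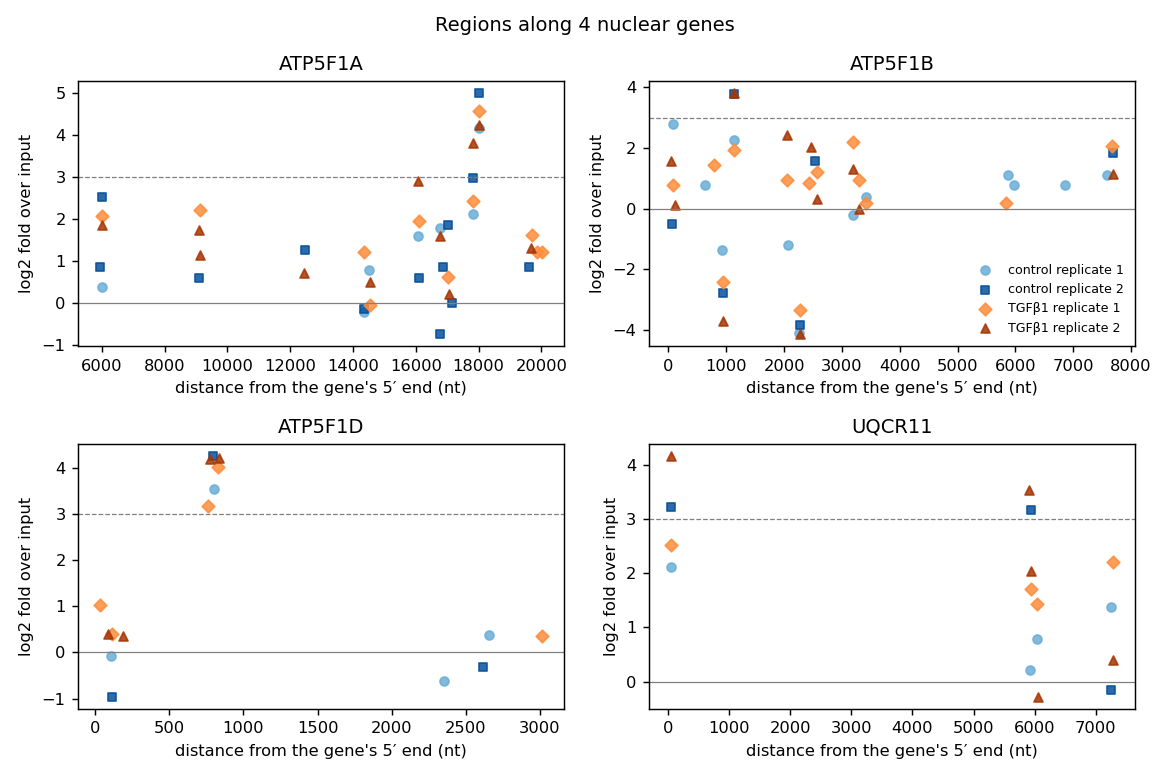
Each panel is 1 nuclear gene, each point 1 region, with the distance of its midpoint from the gene's 5′ end in nucleotides (horizontal axis) and the log2 fold over input (vertical axis); colours and symbols mark the 4 libraries and the dashed line is the log2 fold of 3. ATP5F1A and ATP5F1D each show 1 place above the line in all 4 libraries, and ATP5F1B shows 1 raised place and the 2 low places of SNORD59A and SNORD59B.

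In complex III, UQCR11, a small subunit, had 2 places. The one at the 5′ end, chr19:1605360-1605462, whose letters are given above, had folds of 2.12, 3.22, 2.53 and 4.16 and averaged 2.67 ± 0.78 in control and 3.34 ± 1.16 in TGFβ1 (SD, n = 2). It was enriched in replicate 2 of each condition and appeared in the TGFβ1 list at 3.34. The other place, at chr19:1599536-1599561, gave 0.21, 3.17, 1.71 and 3.53. UQCRC1, a core subunit, reached 1.25, 1.85, 2.94 and 2.97 and UQCRH, the hinge protein, 0.38, 0.85, 1.62 and 2.05. UQCRC1 had 3, 4, 6 and 13 regions and UQCRH 1, 1, 3 and 3, and the part of these numbers in the highest folds was not tested. For both genes the TGFβ1 values lay above the control values without overlap, and none was called. The same order held in 42.8% of protein-coding genes with a region in all 4 libraries and in 32.5% of such members. UQCR11, ATP5F1A and ATP5F1D were the 3 nuclear members with a peak in the authors' lists, of 2 peaks in the control list and 4 in the TGFβ1 list. Over all nuclear protein-coding genes with a region in the same condition, 2.82% had a peak in the control list and 4.94% in the TGFβ1 list.

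In complexes I and IV, 1 gene each had an enriched region, again in TGFβ1 replicate 2 alone and at the 5′ end. NDUFB10, an accessory subunit of the membrane arm, gave 2.88, 2.72, 2.20 and 3.63 at chr16:1959546-1959642. Its control and TGFβ1 values overlapped. COX5B, a subunit on the matrix side of complex IV, gave 1.79, 2.85, 2.53 and 4.22 at chr2:97646078-97646185, with the groups overlapping as well. NDUFA10 reached 2.60, 2.72, 2.20 and 3.63 and was not called, since the −log10 p of its highest region in TGFβ1 replicate 2 was 2.81. NDUFB2 reached 2.04, 1.26, 2.79 and 2.97. Among complex IV genes with a region in all 4 libraries, the next by median were COX7C at 2.12, 1.58, 0.62 and 1.42 and COX4I1 at 0.38, 1.26, 1.94 and 1.72. COX7C was one of the 2 members whose TGFβ1 values were both below the control values, or 5% of members, beside 5.44% of all protein-coding genes.

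Complex II had no enriched region among its 7, 7, 6 and 13 regions. The share over all nuclear protein-coding genes was 0.957%, 1.91%, 2.55% and 3.6%. With so few regions the Wilson interval for complex II reached up to 35.4%, 35.4%, 39.0% and 22.8%. SDHA, the flavoprotein that oxidises succinate, reached 1.79, 0.85, 1.62 and 2.05, and SDHC, a membrane anchor, 0.38, −0.15, 0.62 and 1.31. SDHB had regions in the TGFβ1 libraries only, 3 and 8 of them, with highest folds of 1.62 and 1.72. SDHD had regions in control replicate 2 and TGFβ1 replicate 1.

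Among genes that fit the naming rule but encode assembly factors or inhibitors, NDUFAF3 and NDUFAF8, which help to build complex I, had a site enriched in TGFβ1 replicate 2 alone. NDUFAF3 gave 0.38, 2.85, 2.08 and 3.77 at chr3:49022883-49022976, and NDUFAF8 gave 1.60, 3.51, 2.01 and 3.39 at chr17:81241090-81241154. In control replicate 2 the NDUFAF8 region passed the fold limit with a −log10 p of 2.74. COX7A2L, which joins respiratory complexes to one another, reached 0.79, 1.26, 2.43 and 1.60. ATP5IF1, the inhibitor of ATP synthase, was lowest of the 40 genes, at 0.79 and 0.11 in control and −0.38 and −0.86 in TGFβ1.

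**Figure D4:**
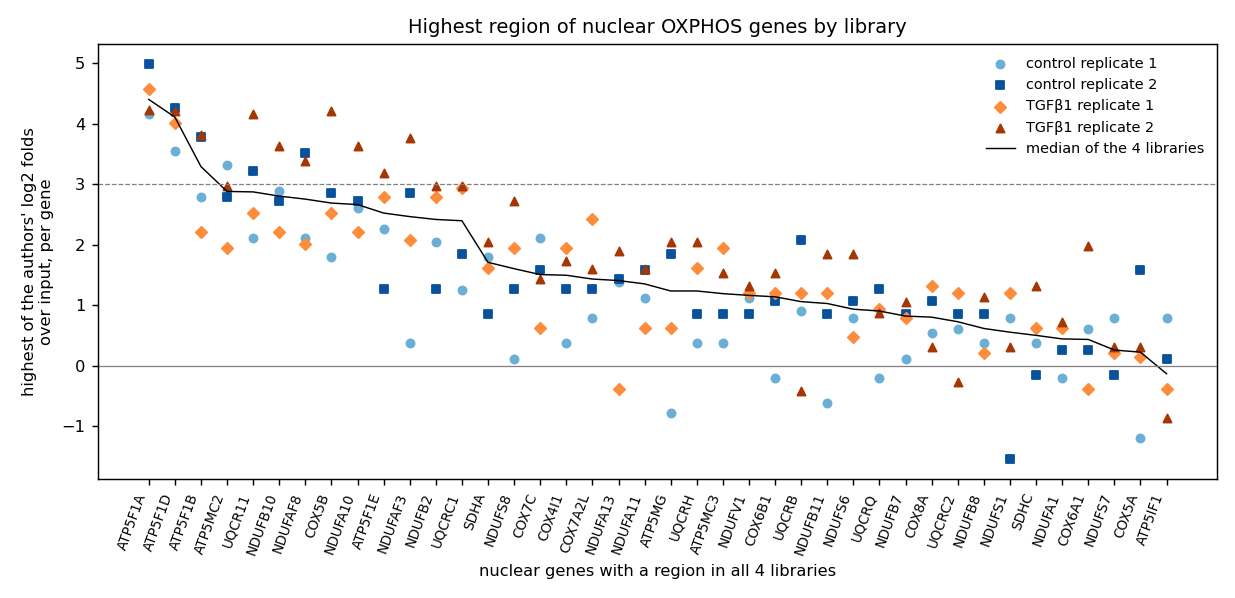
For each of the 40 nuclear genes with a region in all 4 libraries (horizontal axis), points give the highest log2 fold over input of the gene in each library (vertical axis) and the line gives their median; the dashed line is the log2 fold of 3. ATP5F1A and ATP5F1D lie above the dashed line in all 4 libraries, and the line falls from 4.40 at ATP5F1A to −0.14 at ATP5IF1.

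Within these data the leading members were high but not extreme. ATP5F1A was above 97.1% of the 4173 protein-coding genes with a region in all 4 libraries when ranked by the median of the highest fold, a rank that also depends on the number of regions per gene, ATP5F1D above 96.2% and ATP5F1B above 91.6%. The lower end was as marked: NDUFS7 was above 1.89%, COX5A above 1.80% and ATP5IF1 above 1.01%. Of the 12 places with an enriched region, 11 of them nuclear, 2 were enriched in all 4 libraries and 7 in TGFβ1 replicate 2 alone. That library had the most regions and the largest share of enriched regions over all genes, and the part of its depth in these calls was not tested. All 11 nuclear places had a value in all 4 libraries, and all 11 were enriched in TGFβ1 replicate 2.

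No difference between the conditions could be called for either set of RNAs with 2 libraries each. The median of nuclear regions was 0.61 ± 0.33 in control and 1.03 ± 0.12 in TGFβ1 (SD, n = 2), a difference of 0.42 with an exact permutation p of 0.33, the smallest that 2 libraries against 2 allow. The median over all regions of a library moved by 0.27 in the same direction. Regions in the 4 cholangiocyte markers were also more numerous under TGFβ1 (2, 3, 15 and 18), and their part in these differences was not tested. The mitochondrial median was −0.81 ± 0.06 in control and −0.57 ± 0.27 in TGFβ1, a difference of 0.24 (exact permutation p = 0.33). The nuclear minus mitochondrial difference was 1.43 ± 0.28 in control and 1.60 ± 0.15 in TGFβ1, 0.18 apart (exact permutation p = 0.667). Without control replicate 1 this last value was −0.017, and for regions with a −log10 p of at least 1 the nuclear and mitochondrial differences were −0.38 and −0.25. All regions with such a −log10 p had positive folds, so that choice selects on the value being compared. For the highest region of a gene, both TGFβ1 values were above both control values in 13 of 40 members, or 32.5%, beside 42.8% of all protein-coding genes, and below them in 2, or 5%, beside 5.44%. The 13 were NDUFA1, NDUFB2, NDUFB11, NDUFS8 and NDUFV1 of complex I, SDHC, UQCRC1 and UQCRH of complexes II and III, COX4I1 and COX6B1 of complex IV, ATP5F1E and ATP5MC3 of complex V, and COX7A2L; the 2 were COX7C and ATP5IF1.

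Regions of these genes recurred between libraries more often in mitochondrial than in nuclear RNA. After overlapping regions were merged, 368 nuclear places remained, of which 47 (12.8%) had a region in all 4 libraries and 212 (57.6%) in 1. Of 96 mitochondrial places, 36 (37.5%) were found in all 4 and 36 in 1. Mitochondrial regions lie densely: RNR2 alone held 26 to 32 per library within 1559 nt. The part of this density in the recurrence was not tested. Across the places shared by a pair of libraries, Pearson's r of the folds was 0.64 to 0.75 for nuclear and 0.91 to 0.94 for mitochondrial RNA. These are descriptions over 66 to 100 and 41 to 46 places that share libraries and genes, and mitochondrial folds also span the gap between rRNA and the rest.

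Regions of the nuclear members lay within 150 nt of the gene's 5′ end in 21.5%, 22.1%, 25.7% and 22.0% of cases, against 3.30%, 4.88%, 6.53% and 5.74% for all protein-coding genes. Member genes are mostly short, and the part of gene length in this was not tested. The mean fold of members near the 5′ end minus that of the others was 0.17, −0.13, −0.23 and 0.45, so position had no uniform direction across libraries. Of the 11 nuclear enriched places, 4 lay within 150 nt of the 5′ end, those of ATP5F1E, COX5B, NDUFB10 and UQCR11. By library, 0 of 2, 1 of 4, 0 of 3 and 4 of 12 enriched member regions lay that near, beside 8.15%, 5.87%, 7.15% and 5.85% of the enriched regions of all protein-coding genes, and the difference was not tested. A further 63 regions lay on the opposite strand of nuclear members and were not counted, and the 2 of them that were enriched were both in ATP5MF-PTCD1, a read-through gene.

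Other nuclear genes for mitochondrial proteins are described by counts, to be read beside the same 10.8%. Of 77 genes for mitochondrial ribosomal proteins 51 had a region and 2 an enriched one, and MRPL43, a protein of the large subunit, led them with highest folds of 4.41, 4.26, 5.04 and 6.59 and peaks in both of the authors' lists. Of 30 genes for mitochondrial transcription, RNA processing and translation 14 had a region and 2 an enriched one. TUFM, the mitochondrial elongation factor Tu, was one of them, with highest folds of 3.25, 3.26, 3.28 and 4.05 and a peak in the TGFβ1 list. No gene of this group had an enriched region in control replicate 1, so the TUFM value there was not called. Protein import had 21 of 26 genes with a region and 2 enriched. No enriched region was found in 32 genes for electron carriers and other assembly factors, in 13 of the tricarboxylic acid cycle or in 4 for adenine nucleotide and phosphate carriers, of which 25, 12 and 4 had a region.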

How the data were processed

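LARP6 eCLIP was measured in 4 precipitated libraries with 4 size-matched inputs. Reads were handled with UMI-tools, cutadapt and STAR on build GRCh38, per the submitters' processing notes; the peak caller, the normalisation and the treatment of reads with several matches are not given in the sources used here, so folds of genes with near-identical pseudogenes are uncertain. The deposited tables have no header. Judged by its values, the deposited column 5 holds log2 folds over input and the deposited column 4 holds −log10 p, capped at 400. The 2 further deposited tables list peaks found in both replicates and allow no spread.

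Members and lists were chosen with earlier results of these data known. Coordinates are 1-based. Gene bounds came from RefSeq GRCh38.p14 (59712 genes, no exons). Strands of the 100 nuclear genes came from promoter windows for 82, from the strand of at least 80% of 3 or more regions for 9, and by hand for 5, while 4 had none and no region; mitochondrial strands were entered by hand. Where promoter windows and regions both gave a strand they were the same in 99.3% of 5328 genes. Shares carry 95% Wilson intervals. Libraries were the unit of each test, two-sided and exact. Genes named were those with an enriched or listed peak, the 3 highest of each complex, the mitochondrial mRNAs and rRNAs, the tRNAs with regions in at least 2 libraries, and listed peaks of the context lists; ATP5MC2, NDUFS7, COX5A, ATP5IF1, SDHB, SDHD and the genes listed under TGFβ1 were added after their values were seen. The assignment code was run on simulated regions placed by the same gene bounds and strands. That run checks the code and cannot check the bounds or strands themselves. Python 3.11.15, pandas 2.3.3 and SciPy 1.17.1 were used. Alternatives are given in the closing section.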

Additional observations from a re-analysis of the deposited data

How the results depend on the processing

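The nuclear minus mitochondrial difference kept its direction in all 13 alternatives, between 0.70 and 1.73, with exact p values of 0.13 to 0.5. The TGFβ1 minus control differences did not, and their exact p values lay between 0.33 and 1 over the alternatives. For nuclear regions the difference turned to −0.38 with only regions of −log10 p at least 1 and to −0.079 with the most common value of each library left out. For mitochondrial regions it turned to −0.18 with the highest region of each gene, −0.25 with regions of −log10 p at least 1 and −0.011 without the rRNAs. The nuclear minus mitochondrial change turned to −0.12 with regions of −log10 p at least 1 and to −0.38 with the most common value left out; without each library in turn it ranged from −0.017 to 0.37. The common-value and rRNA alternatives were chosen after seeing the data, and the cause of these turns was not tested. Every region with a negative fold had a −log10 p of 0. The alternative with −log10 p of at least 1 therefore kept positive folds only, and so selected on the value being compared.

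Without each library in turn the nuclear minus mitochondrial difference was 1.45 to 1.61, the nuclear TGFβ1 minus control difference 0.19 to 0.65 and the mitochondrial one 0.05 to 0.43. Replicate numbers are shared by the groups, but deviations of control and TGFβ1 replicate 1 correlated at 0.04 over 4173 genes, and the labels give no pairing. With the replicate number as a block the values were the same, 1.52, 0.42, 0.24 and 0.18, and the exact p was 0.5, the smallest the block allows.

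Counts of member regions and genes moved with the limits. Shares over all regions or genes at these other limits are not given here, so the counts show nothing particular to the members. With a log2 fold limit of 2, enriched mitochondrial regions numbered 2, 1 and 2 in control replicates 1 and 2 and TGFβ1 replicate 2, and nuclear regions 19 in TGFβ1 replicate 2. With a limit of 4, nuclear regions numbered 1, 2 and 5 in the same libraries, genes 1, 2 and 4, and mitochondrial regions 0 in both TGFβ1 libraries; the lists kept 1 and 2 nuclear and 0 mitochondrial peaks. With a −log10 p limit of 5, control replicates 1 and 2 had 0 and 2 nuclear regions in 0 and 2 genes, and the lists 0 and 2 nuclear peaks. Read numbers per region were not used here, so the part of depth in single folds was not tested.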
